A study of Mus musculus with 6 samples.

Results

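The genes described here mark oligodendrocyte precursors, the dividing glial cells that give rise to the myelinating oligodendrocytes of the brain. They are a fixed list of 8 symbols, *Olig1*, *Olig2*, *Sox10*, *Pdgfra*, *Cspg4*, *Nkx2-2*, *Gpr17* and *Lims2*, and were taken by symbol from a table of 15168 genes. Of the 8, 6 had values, while *Nkx2-2* and *Lims2* were not analysed here. All 6 passed the filter on low values, and so did 15102 of the 15168 genes.

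RNA came from the lateral ganglionic eminence (LGE), the embryonic primordium of the striatum, of mice at E16.5 (embryonic day), and was measured in bulk in 3 libraries per genotype. All embryos carried *Dlx5/6-CIE*, a transgene that expresses Cre recombinase and EGFP under *Dlx5/6* control in LGE progenitors and the neurons made from them. The controls were *Dlx5/6-CIE* alone. The other group, *Dlx5/6-CIE; Rosa-Sp9-OE/+*, also had 1 copy of a knock-in at *Gt(ROSA)26Sor* from which Cre removes a LacZ-STOP cassette, so that the zinc finger transcription factor *Sp9* is expressed from a CAG promoter. The study's methods describe a mixed genetic background and littermate controls. They do not say whether each library was 1 embryo, so p-values here measure only the spread between these libraries. Cre follows *Dlx5/6*, and which share of the oligodendrocyte precursors in these samples carried the recombined allele was not analysed here.

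Oligodendrocyte precursors of the ventral forebrain arise from progenitors that express *Olig2*, spread through the tissue, and divide in response to platelet-derived growth factor (PDGF). They first switch on *Sox10*, *Pdgfra* and *Cspg4*. On leaving the cell cycle they lose *Pdgfra* and pass through a stage with high *Gpr17* before the myelin genes come on. The LGE in late gestation is a source of such cells for the striatum and cortex, and in the progenitor zone *Olig2* and *Olig1* RNA is present in cells that are not yet committed to glia.

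The groups did not differ in any of the 6 genes past the threshold, but every gene had the lower mean in the *Sp9* overexpression group. The means were lower by 23.7% for *Gpr17*, 16.4% for *Olig1*, 16.2% for *Cspg4*, 15.4% for *Pdgfra*, 14.3% for *Sox10* and 9.14% for *Olig2*. By value 49.8% of all genes tested were lower, and the median log2 fold change was -0.25 over the 6 genes and 0.00 over all genes. The number of the 6 called at an adjusted p under 0.05 was 0 with limma on log2(CPM + 0.5), 0 with edgeR and 0 with DESeq2 on the recovered reads, where these tools called 0.0265%, 0.0331% and 0.225% of all genes in either direction. At an unadjusted p under 0.05 limma found 1 of the 6 lower, *Gpr17*, beside 2.84% of all genes, and edgeR and DESeq2 found 0. CPM, the unit of all levels below, is reads scaled to an effective library size, and a fold change on the log2(CPM + 0.5) scale understates the change of low genes. In bulk tissue, fewer cells of a type and less RNA per cell cannot be told apart.

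The 6 libraries differed within the genotypes as well as between them. The *Sp9* overexpression libraries were not alike: replicate 3 had the lowest and replicate 2 the next lowest value of all 6 libraries in each of the 6 genes, an order that 8.1% of all genes tested had and that was noticed after the values were seen. In *Sox10* this order rests on 59 against 62 reads, which is within counting error. In overexpression replicate 1, 2 of the 6 genes lay below all controls, against 6 of 6 in replicates 2 and 3. Of all genes tested, 16.8%, 23.3% and 29.7% lay below all controls in replicates 1, 2 and 3. Values of single libraries are given in the order of the replicate numbers.

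**Figure D1:**
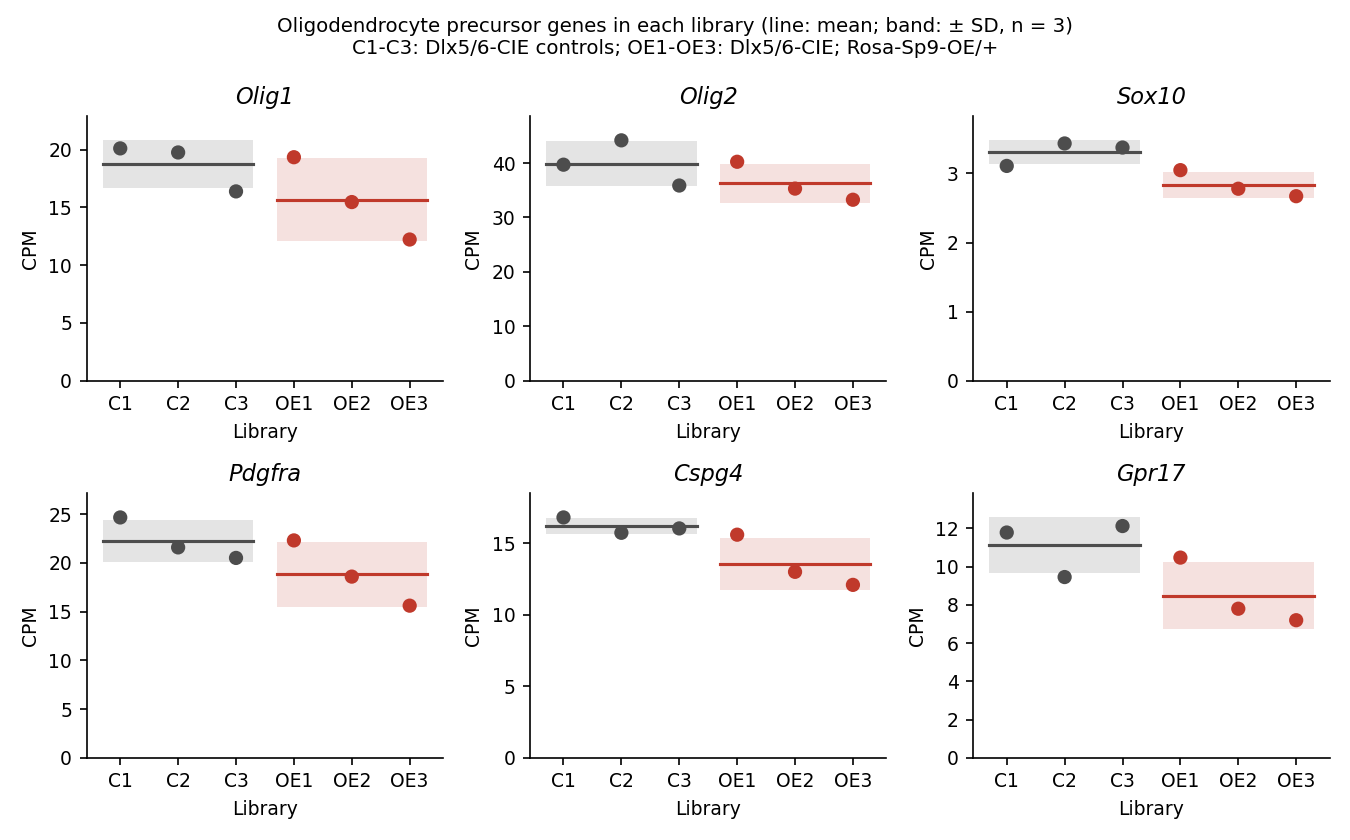
Level in CPM (vertical axis, from 0, a scale of its own in each panel) of the 6 oligodendrocyte precursor genes in each library, with 3 *Dlx5/6-CIE* and 3 *Dlx5/6-CIE; Rosa-Sp9-OE/+* points per panel (C and OE with the replicate number), a line at the group mean and a band of 1 SD on either side. In every panel overexpression replicate 1 lies above replicates 2 and 3, and only *Sox10* and *Cspg4* show no overlap between the genotypes.

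*Olig2* encodes a basic helix-loop-helix transcription factor that oligodendrocyte precursors need in order to form. The gene lies at chr16:91225457-91228677 on the plus strand (GRCm38) and was the most abundant of the 6. It was at 39.7, 44.2 and 35.9 CPM in the controls and at 40.2, 35.3 and 33.3 CPM in the overexpression libraries, which rest on 735 to 1030 reads. The groups overlapped, since overexpression replicate 1 lay above 2 of the controls. The means were 39.9 ± 4.16 and 36.3 ± 3.59 CPM (SD, n = 3 each), a log2 fold change of -0.14 (standard error 0.10, adjusted p = 0.798 from limma).

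*Olig1*, its paralog 41.1 kb further along the chromosome, is a factor of the same class that acts in oligodendrocyte maturation and in repair of myelin. It lies at chr16:91269772-91271933 on the plus strand. Its values were 20.1, 19.8 and 16.4 CPM in the controls and 19.3, 15.5 and 12.2 CPM in the overexpression libraries, from 270 to 495 reads. The lowest control, replicate 3, lay between the overexpression libraries, and the means of 18.7 ± 2.05 and 15.7 ± 3.56 CPM (SD, n = 3 each) gave a log2 fold change of -0.27 (standard error 0.16, adjusted p = 0.789 from limma). The annotation places the noncoding *Gm15966* across *Olig1* on the other strand, and whether counting used the strand is not stated, so reads of the pair may not be separated. In the controls *Olig2* stood to *Olig1* as 1.98, 2.24 and 2.19 to 1, and in the overexpression libraries as 2.08, 2.28 and 2.72, with the highest ratio in overexpression replicate 3.

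*Sox10* encodes a transcription factor of the SoxE group that marks the oligodendrocyte lineage from the precursor on and switches on myelin genes. It lies at chr15:79154908-79165240 on the minus strand and was the least abundant of the 6 genes. It was at 3.11, 3.43 and 3.37 CPM in the controls and at 3.05, 2.78 and 2.67 CPM in the overexpression libraries. All controls lay above all overexpression libraries, by a margin as small as 0.061 CPM between control replicate 1 and overexpression replicate 1. These values rest on 59 to 78 reads, and 62 reads carry an exact Poisson interval of 47.5 to 79.5 that covers counting error only. With 3.31 ± 0.173 and 2.83 ± 0.194 CPM (SD, n = 3 each) the log2 fold change was -0.19 (standard error 0.14, adjusted p = 0.797 from limma). The variance within the genotypes was 0.252 times that expected from counting alone, so at this depth its libraries cannot be ordered within a genotype.

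*Pdgfra* encodes the receptor for PDGF-A, the main mitogen of oligodendrocyte precursors, and is also used by fibroblasts of the meninges and vessels. It lies at chr5:75152292-75198215 on the plus strand. Its values were 24.7, 21.6 and 20.5 CPM in the controls and 22.3, 18.6 and 15.6 CPM in the overexpression libraries, from 345 to 571 reads. Overexpression replicate 1 lay inside the range of the controls and replicates 2 and 3 below it. The means were 22.3 ± 2.16 and 18.8 ± 3.35 CPM (SD, n = 3 each), with a log2 fold change of -0.25 (standard error 0.14, adjusted p = 0.788 from limma). The short *Gm42802*, *Gm42803* and *Mir7025* overlap the span of *Pdgfra*.

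*Cspg4* encodes the proteoglycan NG2 on the surface of oligodendrocyte precursors and of pericytes, the mural cells of small vessels. It lies at chr9:56865033-56899870 on the plus strand. It was at 16.8, 15.7 and 16.0 CPM in the controls and at 15.6, 13.0 and 12.1 CPM in the overexpression libraries, from 267 to 399 reads. The controls lay close together and all above the overexpression libraries, although replicate 1 of these was only 0.132 CPM below the lowest control. With 16.2 ± 0.553 and 13.6 ± 1.82 CPM (SD, n = 3 each) the log2 fold change was -0.25 (standard error 0.11, unadjusted p = 0.0501, adjusted p = 0.788 from limma). *Cspg4* and *Sox10* were thus 2 of 6 members without overlap and lower in the overexpression group, where 5.73% of all genes were. Without overexpression replicate 1 this held for 6 of the 6 and for 13.6% of all genes.

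The 250 bases before the annotated RefSeq start are shown for 3 members, since the allele encodes a zinc finger factor of the Sp family, whose members bind GC-rich boxes. RefSeq windows on GRCm38.p6 are given for 3 of the 6 genes, *Olig2* at chr16:91225300-91225549, *Pdgfra* at chr5:75152001-75152250 and *Cspg4* at chr9:56864854-56865103, all on the plus strand. *Olig1* and *Sox10* were not matched. *Gpr17* was left out of the search, which skipped its chromosome, so its window was not analysed here. Capitals mark a GC box, GGGCGG or its reverse complement CCGCCC.
Olig2: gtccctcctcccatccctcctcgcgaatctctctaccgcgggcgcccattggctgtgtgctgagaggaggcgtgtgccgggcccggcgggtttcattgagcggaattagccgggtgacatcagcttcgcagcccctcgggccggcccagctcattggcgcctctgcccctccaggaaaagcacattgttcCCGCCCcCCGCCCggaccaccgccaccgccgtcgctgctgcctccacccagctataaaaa
Pdgfra: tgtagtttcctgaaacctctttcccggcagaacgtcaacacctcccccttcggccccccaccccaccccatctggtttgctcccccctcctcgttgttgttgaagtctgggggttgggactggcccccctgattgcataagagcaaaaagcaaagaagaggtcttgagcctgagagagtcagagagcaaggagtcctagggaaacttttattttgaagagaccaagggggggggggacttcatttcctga
Cspg4: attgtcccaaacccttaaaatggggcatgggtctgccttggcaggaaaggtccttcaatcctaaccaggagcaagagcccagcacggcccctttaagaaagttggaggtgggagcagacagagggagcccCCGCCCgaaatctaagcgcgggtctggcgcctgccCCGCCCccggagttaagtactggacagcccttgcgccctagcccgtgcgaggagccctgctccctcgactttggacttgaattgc
The windows of *Olig2* and *Cspg4* held 2 boxes each, all read as CCGCCC on the plus strand, and that of *Pdgfra* held 0. The RefSeq starts differ from the annotation behind the gene spans given above. The windows of *Olig2* and *Cspg4* therefore end inside those spans, and the 2 boxes of *Olig2* lie inside its span. The GC contents of the windows of *Olig2*, *Cspg4* and *Pdgfra* were 66.8%, 60.4% and 54.4%. The median was 52.4% over 32851 RefSeq windows of the same length, 32.7% of which held at least 1 box. A core of the Sox motif, ACAAAG or CTTTGT, was found 0 times in each of the 3 and in 16.46% of all windows. A match of letters is a description and not a binding site, and the absence of one says nothing of a factor. The log2 fold changes of *Olig2*, with 2 boxes, *Cspg4*, with 2, and *Pdgfra*, with 0, were -0.14, -0.25 and -0.25.

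Summed over the 6 genes, the level was 116, 114 and 104 CPM in the controls and 111, 92.9 and 83.0 CPM in the overexpression libraries. Control replicate 3 lay below overexpression replicate 1, so the sums overlapped. As shares of the control mean these sums were 99.5%, 83.3% and 74.5% in the 3 overexpression libraries and 93.5% to 104% in the controls, with means of 112 ± 6.35 and 95.7 ± 14.2 CPM (SD, n = 3 each). The median SD within the genotypes was 0.172 on the log2 scale for the 6 genes and 0.124 for all genes tested. For the members other than *Sox10* the variance within the genotypes was 3.12 to 12.005 times that of counting alone, lowest in *Cspg4* and highest in *Olig1*.

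The make-up of the sum differed little between the libraries. *Olig2* was 34.2 to 40.1% of it, *Pdgfra* 18.8 to 21.2%, *Olig1* 14.7 to 17.4%, *Cspg4* 13.8 to 15.4%, *Gpr17* 8.28 to 11.6% and *Sox10* 2.68 to 3.24%. The highest share of *Olig2* was that of overexpression replicate 3, the library with the lowest sum. Divided by exon length the order changed. On the scale of CPM per kb of exon, the control means were 15.8 ± 1.64 for *Olig2*, 8.67 ± 0.9502 for *Olig1*, 2.22 ± 0.215 for *Pdgfra*, 2.14 ± 0.279 for *Gpr17*, 1.36 ± 0.0463 for *Cspg4* and 1.08 ± 0.0567 for *Sox10* (SD, n = 3 each). The neighbours *Pdgfra* and *Gpr17* did not differ beyond their spread, and the same order held in the overexpression group.

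**Figure D2:**
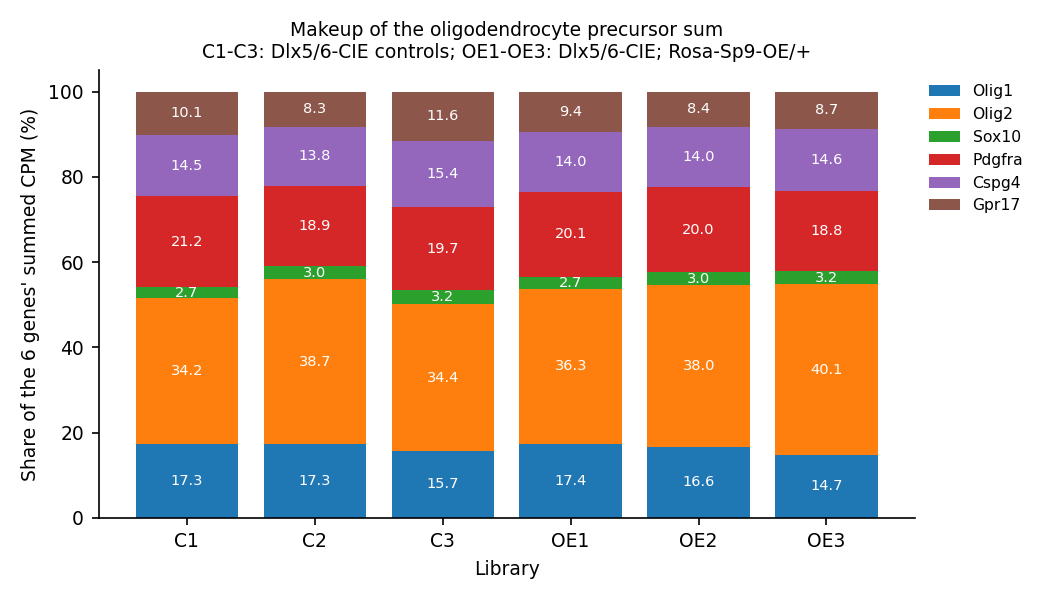
Share of each of the 6 genes in their summed CPM (vertical axis, percent, from 0 to 100) in each library (horizontal axis). The stacks are alike, with *Olig2* at 34.2 to 40.1% and *Sox10* at 2.68 to 3.24% in every library.

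*Gpr17* encodes a G protein-coupled receptor of precursors that have begun to differentiate, and holds them before the myelinating stage. It lies at chr18:31942997-31949636 on the minus strand, inside the span of *Lims2*, an adaptor of integrin adhesion sites on the plus strand at chr18:31922290-31958619, so reads of the pair may not be separated. Its values were 11.8, 9.45 and 12.1 CPM in the controls and 10.5, 7.80 and 7.20 CPM in the overexpression libraries, from 159 to 273 reads. Overexpression replicate 1 lay above control replicate 2, and replicates 2 and 3 below every control. The means of 11.1 ± 1.45 and 8.49 ± 1.74 CPM (SD, n = 3 each) gave the lowest log2 fold change of the 6, -0.38 (standard error 0.16, 95% interval -0.756 to -0.00307, unadjusted p = 0.0486, adjusted p = 0.788 from limma).

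Which libraries were compared changed these differences. Without overexpression replicate 3 the log2 fold changes were -0.11 for *Olig1*, -0.08 for *Olig2*, -0.12 for *Pdgfra*, -0.18 for *Cspg4*, -0.28 for *Gpr17* and -0.16 for *Sox10*. Without overexpression replicate 1 they were -0.43, -0.21, -0.37, -0.36, -0.53 and -0.24 in the same order, and 4 of the 6 had an unadjusted p under 0.05, as did 4.99% of all genes in the lower direction. Without control replicate 2 that of *Olig2* was -0.06, and without control replicate 3 it was -0.21. The adjusted p of the 6 genes ran from 0.451 to 1.00 over the 16 alternatives, so none was called in any of them.

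Control replicates 1 and 2 stood apart in *Xist*, the X-inactivation RNA, with 2227 and 2191 CPM against 1.37 to 2.35 CPM in the other 4 libraries, while the Y-linked *Kdm5d* was at 0.05 to 0.1 CPM in these 2 controls and at 73.7 to 80.6 CPM elsewhere. The labels give no sex, and only control replicate 3 is like the overexpression libraries in these levels. Against control replicate 3 alone the log2 fold changes were -0.51 for *Gpr17*, -0.24 for *Cspg4*, -0.22 for *Sox10*, -0.13 for *Pdgfra*, -0.09 for *Olig1* and 0.01 for *Olig2*. Those of *Gpr17* and *Sox10* were further from 0 than with all controls, those of *Cspg4*, *Pdgfra* and *Olig1* nearer to 0, and that of *Olig2* above it. With 1 control the fit takes its spread from the 3 overexpression libraries. The part of sex in these differences was not tested beyond this.

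*Sp9* itself was at 130, 147 and 170 CPM in the controls and at 178, 268 and 305 CPM in the overexpression libraries, a log2 fold change of 0.72 (standard error 0.19, adjusted p = 0.788 from limma). Overexpression replicate 1 was thus the nearest to the controls in *Sp9*, as it was in the 6 oligodendrocyte precursor genes. The summed microglia genes described below were also nearest to the controls in that library. Whether the level of *Sp9* and that of the 6 genes are linked was not tested. *Gt(ROSA)26Sor*, the gene at the knock-in site, was in contrast alike in the 3 overexpression libraries, at 23.0, 23.2 and 23.1 CPM, and at 11.8, 13.3 and 14.2 CPM in the controls (adjusted p = 0.066 from limma). The libraries held 19410365 to 25126847 reads in listed genes, most in overexpression replicate 1, and levels are scaled for this.

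**Figure D3:**
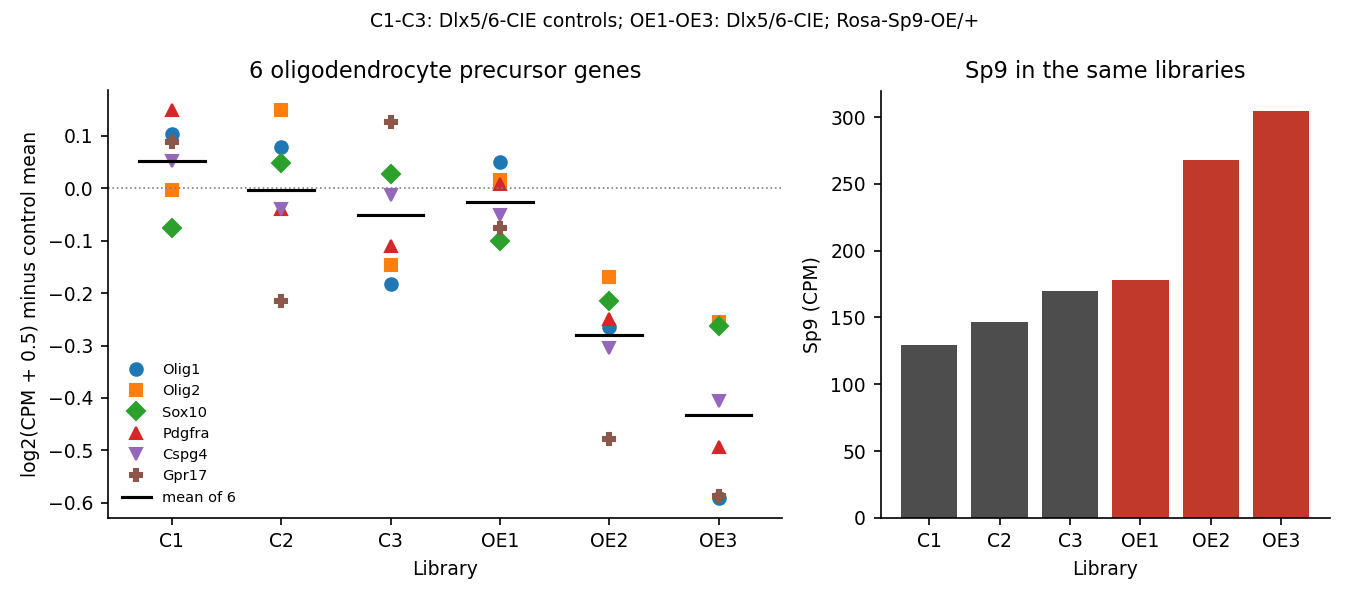
Left, difference of each library (horizontal axis, C1 to C3 controls, OE1 to OE3 overexpression) from the control mean on the log2(CPM + 0.5) scale (vertical axis), with a point for each of the 6 genes and a bar for their mean, which is near 0 in the controls and in OE1 and at -0.28 and -0.43 in OE2 and OE3. Right, *Sp9* in CPM in the same libraries, at 178 in OE1 and at 268 and 305 in OE2 and OE3.

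The rest of the oligodendrocyte lineage was read from lists of genes named by stage. Of 20 further genes used by oligodendrocyte precursors, 17 were tested, of which 9 were lower and 8 higher by value, 0 were called by limma and the median log2 fold change was -0.06. The most abundant, *Ptprz1*, a receptor phosphatase also of radial glia, was at 878 ± 61.8 and 810 ± 60.0 CPM. *Vcan*, a matrix proteoglycan of precursors, was higher by value, at 271 ± 27.5 and 309 ± 33.0 CPM, with an adjusted p above the threshold. Most of these genes are also expressed by radial glia or young neurons, and their summed level was 2219 to 2346 CPM over the controls and 2215 to 2253 CPM with overexpression. The order seen in the 6 members, replicate 3 lowest and replicate 2 next, was present in 4 of the 17. *C1ql1* and *Lhfpl3*, which, like *Matn4*, were picked with their values in view, were at 1.504, 1.34, 1.02 and 6.47, 6.07, 5.33 CPM in the controls and at 1.29, 0.941, 0.724 and 5.59, 5.65, 4.16 CPM in the overexpression libraries. *Matn4*, a matrix protein gene of similar level, was higher by value, at 2.26, 2.49 and 1.20 CPM in the controls and at 2.15, 2.24 and 2.72 CPM with overexpression. None of these 3 genes passed the threshold.

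Of 12 genes of committed, differentiating oligodendrocytes 10 were tested. By value 8 were lower and 2 higher, 0 were called, and 2 of the lower ones had an unadjusted p under 0.05, with a median log2 fold change of -0.16. *Itpr2*, a calcium channel of newly formed oligodendrocytes, was at 12.2, 12.9 and 13.2 CPM in the controls and at 10.8, 11.3 and 9.05 CPM in the overexpression libraries, with no overlap (log2 fold change -0.29, standard error 0.11, adjusted p = 0.788 from limma). *Zfp488*, a zinc finger transcriptional regulator of the lineage, was chosen after its values were seen. It was at 1.30, 1.09 and 1.60 CPM in the controls and at 0.625, 0.896 and 0.769 CPM in the overexpression libraries (log2 fold change -0.53, standard error 0.20, adjusted p = 0.788 from limma). With 1 read worth 0.0391 to 0.0501 CPM, these values rest on fewer reads than those of *Sox10*, so counting error limits them further. *Itpr2* and *Zfp488* were the 2 with an unadjusted p under 0.05 from limma. In these 2 genes the groups did not overlap, and overexpression replicate 1 lay below all controls too, unlike in 4 of the 6 members.

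Of 11 myelin genes 7 were tested, of which 5 were lower and 2 higher by value and 0 were called, with a median log2 fold change of -0.03. *Mbp*, a main protein of the myelin sheath, was at 27.1 ± 2.06 and 26.7 ± 2.06 CPM (SD, n = 3 each). The myelin genes summed to 60.2 to 60.9 CPM over the controls and 57.0 to 61.5 CPM with overexpression, ranges that overlapped. Some of these genes are expressed outside myelin at this age.

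**Figure D4:**
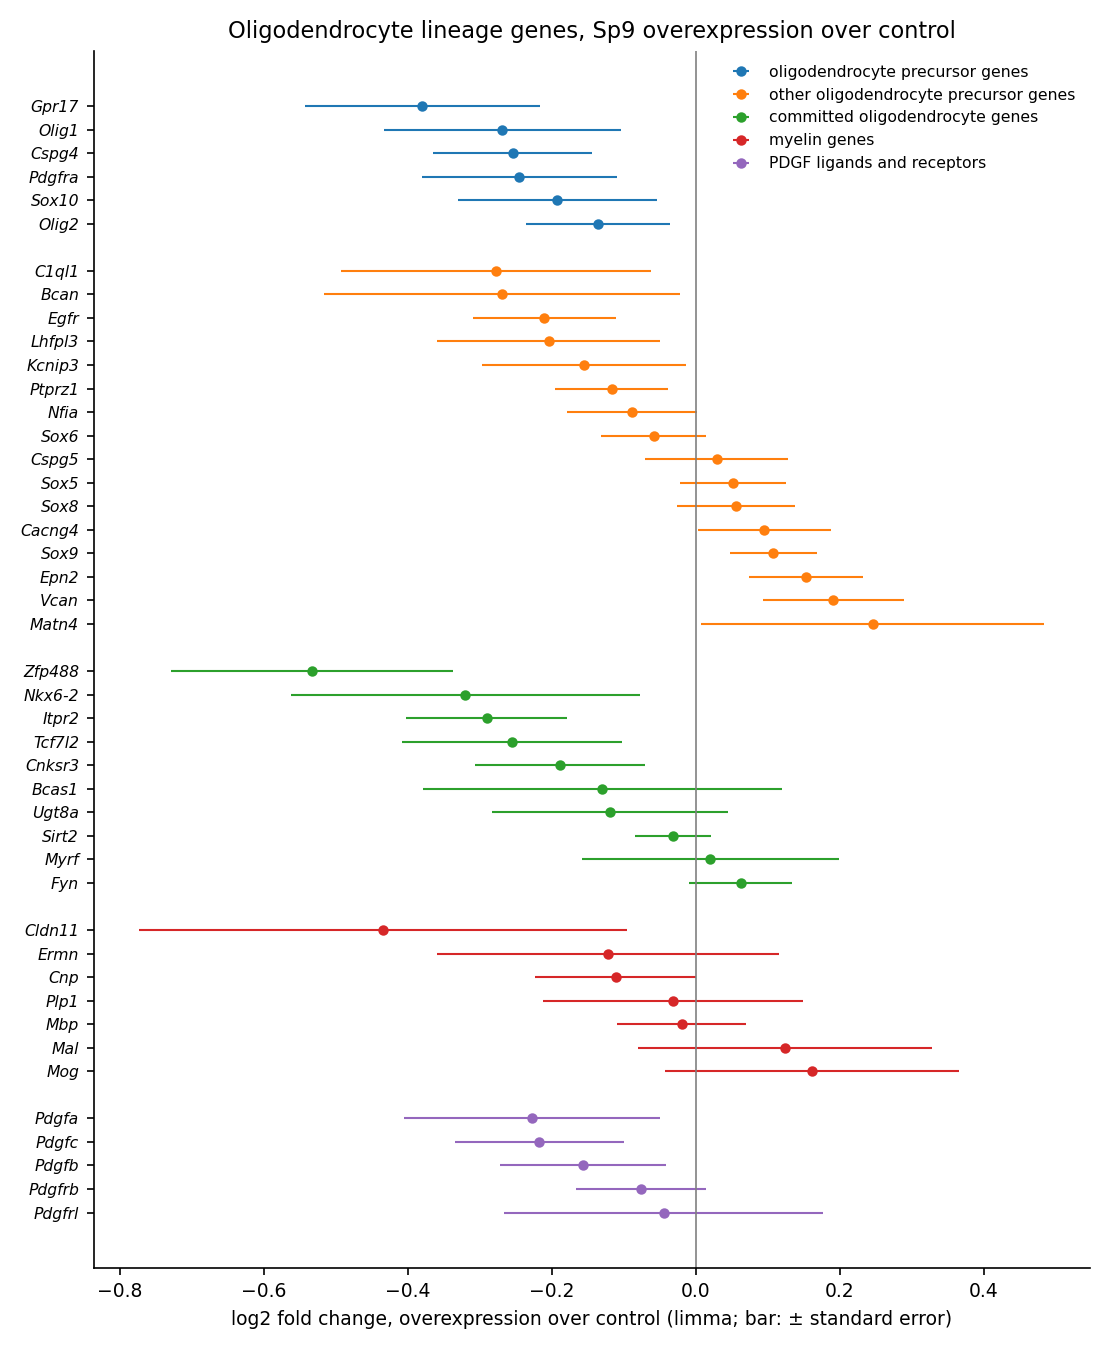
Log2 fold change of the overexpression over the control group from limma (horizontal axis, bars ± standard error) for the 6 members and for genes of the other oligodendrocyte precursor, committed oligodendrocyte, myelin and PDGF lists (vertical axis). The 6 members, the 5 genes of the PDGF list and 8 of the 10 committed genes lie left of 0, the other lists lie on both sides, and none of the genes drawn passed the threshold.

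*Pdgfra* answers to PDGF, whose genes were counted as a group of their own. Of the 6 other ligand and receptor genes 5 were tested, all 5 were lower by value, 0 were called, and their median log2 fold change was -0.16. *Pdgfa*, the ligand made by neurons and astrocytes that drives precursor division, was at 6.72, 5.77 and 6.22 CPM in the controls and at 6.80, 5.06 and 4.16 CPM in the overexpression libraries. Its values overlapped, with overexpression replicates 2 and 3 below all controls and replicate 1 above them. *Pdgfc*, a second ligand of the receptor, chosen after its values were seen, was at 5.45 ± 0.0676 and 4.62 ± 0.230 CPM (SD, n = 3 each) without overlap (adjusted p = 0.788 from limma).

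Sonic hedgehog signalling induces *Olig2* in the ventral forebrain. Of 12 genes of this pathway 11 were tested, 4 lower and 7 higher by value, with 0 called and a median log2 fold change of 0.01. Of 10 genes that hold back oligodendrocyte differentiation, 7 were lower and 3 higher by value, 0 were called, and the median was -0.04. Members of this list named after their values were seen stood on both sides. *Id4*, an inhibitor of basic helix-loop-helix factors, was at 116 ± 0.616 and 136 ± 13.1 CPM without overlap, and *Hes5*, a Notch target, at 45.1 ± 5.27 and 36.8 ± 4.15 CPM with overlap (SD, n = 3 each). Both had an adjusted p of 0.788 from limma.

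Several members are shared with other cell types, so these were measured beside them. Genes of mural cells, which share *Cspg4*, summed to 140 to 159 CPM over the controls and 146 to 150 CPM with overexpression, with a median log2 fold change of 0.01 and 3 of 8 genes lower by value. The order of the libraries in *Cspg4* was present in 0 of these 8 genes. Genes of fibroblasts, which share *Pdgfra*, summed to 51.9 to 58.0 CPM and 42.4 to 51.6 CPM, with 4 of 4 genes lower by value and a median log2 fold change of -0.30. On the mean log2 scale the overexpression libraries were at -0.78, -0.18 and -0.16. The first of these values rests largely on the collagen gene *Col1a1*, which was at 5.67, 6.57 and 6.75 CPM in the controls and at 0.899, 6.23 and 6.79 CPM in the overexpression libraries. *Col3a1*, another collagen gene, chosen after its values were seen, had the members' order, at 3.95, 3.72 and 3.35 CPM with overexpression and 4.66, 4.33 and 6.26 CPM in the controls. Endothelial genes summed to 166 to 170 CPM and 155 to 162 CPM, without overlap, with 6 of 8 lower by value. Their sums were 162, 158 and 155 CPM in the overexpression libraries, which is the members' order. That order was present in 2 of the 8 genes, against 8.1% of all genes tested, and 0 of the 8 were lower without overlap.

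The microglia genes were lowest in the same libraries. All 8 were lower by value in the overexpression group, 0 were called and the groups overlapped in each. In 7 of the 8 replicate 3 was lowest and replicate 2 next lowest, and the summed level was 93.8%, 71.2% and 24.6% of the control mean in the 3 overexpression libraries, while the controls ran from 82.4 to 114.5%. *Cx3cr1*, the fractalkine receptor of microglia, was at 48.8, 70.4 and 69.2 CPM in the controls and at 54.3, 35.8 and 12.9 CPM in the overexpression libraries. Microglia and oligodendrocyte precursors are separate lineages that are both spread thinly through the tissue. The microglia level in replicate 3 was at -2.05 on the mean log2 scale, where the 6 oligodendrocyte precursor genes were at -0.43.

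Genes of radial glia, the progenitors of the LGE, were at -0.07, -0.10 and -0.25 on the same scale in the overexpression libraries, with 7 of 8 lower by value, 0 called and a median log2 fold change of -0.13. Their sums were 2280 to 2735 CPM over the controls and 2114 to 2425 CPM with overexpression. Genes of medium spiny neurons, the projection neurons of the striatum, were higher by value in 7 of 8 cases, at 0.18, 0.22 and 0.41 in the overexpression libraries and 0.28, -0.19 and -0.09 in the controls. Limma called 0 of them and DESeq2 called 1, *Gad1*, an enzyme of GABA synthesis. Of the 8, 2 were higher without overlap, *Gad1* and *Foxp2*, both named with their values in view. The share of all genes that were higher without overlap was not counted. The sums of the medium spiny neuron genes overlapped at 1955 to 2437 and 2315 to 3067 CPM. Genes of the medial ganglionic eminence summed to 298 to 335 and 276 to 331 CPM, with 4 of 6 lower by value. The part of these other cell types, or of the tissue dissected, in the values of the 6 members was not tested.

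**Figure D5:**
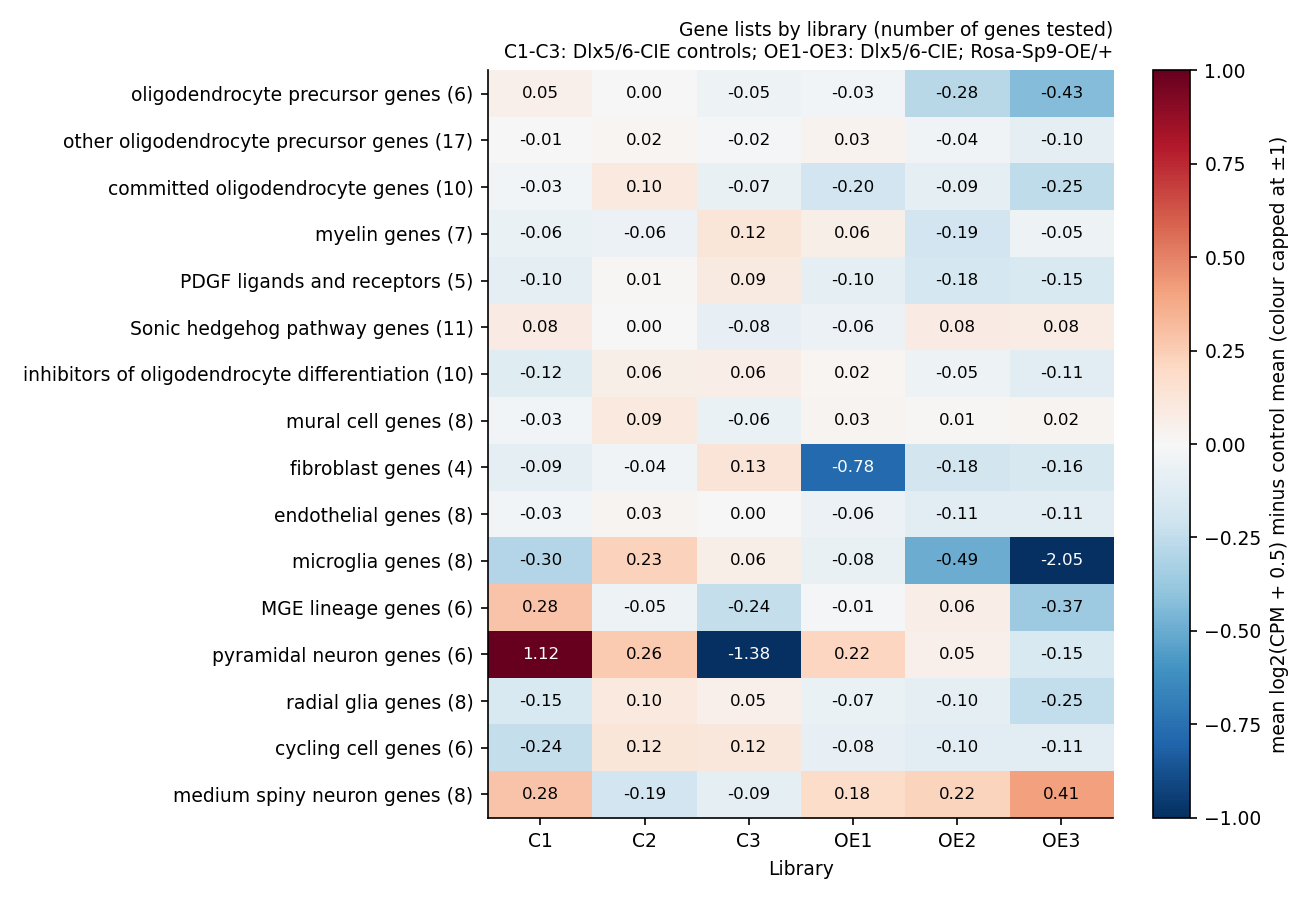
Mean difference from the control mean on the log2(CPM + 0.5) scale (number and colour, with the colour capped at 1 either way) for each gene list (rows, with the number of genes tested) in each library (columns). The oligodendrocyte precursor genes, the other oligodendrocyte precursor genes and the microglia genes are lowest in overexpression replicate 3 and next lowest in replicate 2. For the other oligodendrocyte precursor genes these means are -0.10 and -0.04. The fibroblast mean is lowest in replicate 1, largely through *Col1a1*, and the medium spiny neuron genes are highest in replicate 3.

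The genes whose levels followed the 6 members most closely over the 6 libraries were *Acadvl*, *Atp10b*, *Tpst2*, *Bbc3*, *Nt5c* and *Hlcs*, with a Pearson r of 0.983 to 0.991 between their log2 level and the mean profile of the members. Of 12757 genes that could be named by this rule, 65 had an r above 0.95, and the members' own r ran from 0.807 to 0.987. All points share the same 6 libraries, so r is a description only. *Acadvl*, an enzyme of fatty acid oxidation, was at 32.7, 32.7 and 31.9 CPM in the controls and at 31.8, 29.4 and 28.4 CPM in the overexpression libraries. *Atp10b*, a lipid flippase, had a wider range, at 1.70, 1.44 and 1.24 CPM and at 1.37, 0.807 and 0.362 CPM.

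*Olig1* and *Olig2* are each other's nearest measured gene on one side, and both had the members' order of libraries. None of the other nearest measured genes on either side had overexpression replicate 3 lowest and replicate 2 next lowest. *Polr2f*, a subunit of RNA polymerase 3.1 kb from *Sox10*, was at 35.1 ± 1.70 and 33.5 ± 3.35 CPM, and *Pick1*, on the other side, at 62.8 ± 1.01 and 65.9 ± 2.52 CPM. *Gsx2*, an LGE patterning factor 74.4 kb from *Pdgfra*, was at 19.6 ± 4.82 and 16.9 ± 0.952 CPM, and the receptor *Kit* at 21.6 ± 2.97 and 18.5 ± 0.456 CPM. *Ifnar2*, the interferon receptor gene 100.8 kb beyond *Olig1*, was at 23.5 ± 0.977 and 21.0 ± 1.46 CPM without overlap (adjusted p = 0.788 from limma). *Lingo1*, an inhibitor of oligodendrocyte differentiation 68.6 kb from *Cspg4*, was at 39.1 ± 9.85 and 28.3 ± 2.73 CPM (all SD, n = 3), with no overlap and a log2 fold change of -0.43 (adjusted p = 0.788 from limma).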

How the data were processed

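RNA-seq libraries of E16.5 LGE, 3 per genotype, were prepared by the authors with a stranded total RNA kit after removal of ribosomal RNA. The authors deposited CPM per gene and library, and the submitters' processing notes name the build mm10. For the aligner, the counter and its use of strand, names are not given in the sources used. Beside these columns the authors deposited a mean log2 CPM, a log2 fold change, a p-value and an adjusted p-value of their own comparison, which were not used. Genotypes and replicate numbers come from the labels, and 0 per-sample columns were left out.

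Within a library 100% of CPM values were whole multiples of 1 read within 0.000556 CPM. The reads recovered from them, 19410365 to 25126847 in listed genes per library, served only for edgeR 4.0.16, which called 5 genes, and DESeq2 1.42.0, which called 34. Replicates of a genotype differed by more than sampling noise. Genes that reached 0.5 CPM in 3 or more libraries entered a limma 3.58.1 fit of genotype (R 4.3.3, eBayes with trend) to log2(CPM + 0.5). Two-sided p-values were adjusted by Benjamini-Hochberg over all 15102 genes, and called under 0.05. The procedure was tested on simulated data.

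The members and all gene lists were chosen with earlier results of these data known. Named genes are the members, the checks (*Sp9*, *Gt(ROSA)26Sor*, *Xist*, *Kdm5d*), up to 3 of the most abundant genes of a list, markers near 0, genes past the threshold, the 6 non-members at 1 CPM or more most like the members by Pearson r, and genes next to or across a member. *C1ql1*, *Lhfpl3*, *Matn4*, *Zfp488*, *Pdgfc*, *Id4*, *Hes5*, *Col3a1*, *Gad1* and *Foxp2* lie outside this rule, being picked with their values in view. Within the list of other oligodendrocyte precursor genes, 1 gene is counted but not reported here by name or drawn. Coordinates are from the GRCm38 annotation. The fit was repeated with a block for the replicate number, without each library in turn, with other filters and pseudocounts, with median-of-ratios scaling, by both count models, with *Xist* as a covariate and on the 4 libraries with low *Xist*. The paper's other libraries and single-cell data were not analysed here.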

Additional observations from a re-analysis of the deposited data

How the results depend on the processing

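Over all 16 alternatives 0 of the 6 oligodendrocyte precursor genes were called. Their log2 fold changes kept their sign except for *Olig2*, which was at 0.0103 with *Xist* as a covariate and at 0.0112 with only the 4 libraries of low *Xist*, against -0.14. The number of all genes called was 4. It was 34 with DESeq2 and ran from 3 to 15 when 1 library was left out, with 15 without control replicate 1 and 11 without control replicate 3. The number of members lower at an unadjusted p under 0.05 was 1. It was 4 without overexpression replicate 1, and 0 without control replicate 1 or 3, without overexpression replicate 2 or 3, with either count model and with either *Xist* alternative. It was 2 with no filter, a pseudocount of 0.1 CPM or median-of-ratios scaling. With the replicate number as a block it was 4, and 3 genes were called over all genes. Deviations of same-numbered libraries from their group means had r of -0.10, 0.20 and 0.08, and those of differently numbered libraries -0.26 to 0.15. With so few libraries these values do not settle whether the numbers pair them, and the labels state no pairs. The median log2 fold change of the other oligodendrocyte precursor genes was 0.01 without overexpression replicate 3. At this depth *Sox10*, with 59 to 78 reads, limits what can be read from its libraries.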

Other observations

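Genes of pyramidal neurons, the excitatory neurons of the cortex that borders the LGE, differed most among the controls. Their summed level was 14.0 to 102 CPM over the controls and 35.2 to 49.5 CPM with overexpression, and on the mean log2 scale the controls were at 1.12, 0.26 and -1.38. The oligodendrocyte precursor genes had the same order of the controls with a smaller spread, at 0.05, 0.00 and -0.05. Genes of cycling cells summed to 1347 to 1820 CPM over the controls and 1508 to 1516 CPM with overexpression, with 5 of 6 lower by value and 0 called.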
